A study of Mus musculus with 8 samples.

Results

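The NR4A nuclear receptors are the products of 3 genes, Nr4a1, Nr4a2 and Nr4a3, which were chosen by name among the 24976 gene symbols counted in this study. Their levels were followed in bulk RNA from mouse CD8+ T cells activated in culture, in 8 libraries that form 4 groups of 2. The groups were dKO-labelled cells at 48 h, WT cells at 48 h, dKO-labelled cells at 24 h and WT cells at 24 h. The genotype given as NR4aDKO stands for Cd8Cre mice with floxed Nr4a1 and floxed Nr4a2, and the WT cells came from their wild-type littermates. Nr4a3 was not targeted in either genotype. All 4 groups started from naive CD8+ T cells and were stimulated through CD3 and CD28 in medium with IL-2. In this cross Cre recombinase is driven from Cd8 regulatory sequence, so deletion depends on the extent of recombination in each T cell. The ages of the mice, and whether the 2 libraries of a group came from separate animals or cultures, is not stated in the sources used, so p-values measure only the spread between these libraries. In bulk RNA, fewer cells that express a gene and less of its RNA per cell cannot be told apart.

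NR4A proteins are orphan nuclear receptors: their ligand pocket is filled by side chains, and their activity follows mainly from how much protein a cell makes. They are immediate-early genes in T cells, switched on by calcium, calcineurin and NFAT, by MEF2 and CREB factors and by ERK signals after the T cell receptor is engaged. They bind the NBRE element as monomers and related elements as dimers, and NR4A1 and NR4A2, but not NR4A3, can pair with the retinoid X receptors. In chronically stimulated CD8+ T cells they are tied to exhaustion, in part through redundant action of the 3 members.

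Total counts ran from 5000952 to 21686236 per library. The highest total was that of WT 48 h replicate 2, and the next was 8278058 in labelled dKO 24 h replicate 1. The 6 CD8 T cell markers in the table summed to 1789 to 1946 CPM (counts scaled to a library total of 1e6) in the dKO-labelled libraries and to 1203 to 2413 CPM in the WT libraries, and none of them was at 0. Cd4 had 0 to 2 counts, and the myeloid gene Lyz2, the NK cell gene Ncr1 and the globin genes Hbb-bs and Hba-a1 had 0 counts in all 8 libraries, which allows at most 0.138 to 0.600 CPM by library. Over the lists of other cells, 4 B cell markers summed to 3.74 to 5.07 CPM in dKO-labelled libraries and 3.42 to 7.04 CPM in WT libraries, and 6 myeloid markers to 6.04 to 7.13 CPM and 5.67 to 12.1 CPM, led by Cd14. The 3 CD4 and regulatory T cell markers summed to 1.58 to 3.60 CPM in dKO-labelled libraries and 2.85 to 4.46 CPM in WT libraries, and the 6 red cell, platelet and stromal markers to 1.20 to 1.57 CPM and 1.16 to 3.28 CPM. The 3 NK markers summed to 20.1 to 33.9 CPM in dKO-labelled libraries and to 8.58 to 20.1 CPM in WT libraries, nearly all of it from Eomes, which activated CD8 T cells also express. Female and male transcripts moved with the genotype label: Xist ran from 0.719 to 1.80 CPM under the dKO label and from 323 to 805 CPM under the WT label, and 4 Y-linked genes summed to 131 to 175 CPM and to 1.28 to 1.75 CPM. Genotype and sex therefore cannot be told apart in any comparison of the 2 labels. The depth, the intervals and the limits for a count of 0 cover counting error only.

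The promoters of the 3 genes are shown because the members share inducing signals. Each window holds 250 bases before and 50 bases after the RefSeq transcript start, on build GRCm38.p6, 5′ to 3′ on the gene's strand. The windows are chr15:101266596-101266895 on the plus strand for Nr4a1, chr2:57123954-57124253 on the minus strand for Nr4a2 and chr4:48045055-48045354 on the plus strand for Nr4a3. Capitals mark TGACG, the core of the cAMP response element, on either strand, where it reads CGTCA on the printed strand.
Nr4a1: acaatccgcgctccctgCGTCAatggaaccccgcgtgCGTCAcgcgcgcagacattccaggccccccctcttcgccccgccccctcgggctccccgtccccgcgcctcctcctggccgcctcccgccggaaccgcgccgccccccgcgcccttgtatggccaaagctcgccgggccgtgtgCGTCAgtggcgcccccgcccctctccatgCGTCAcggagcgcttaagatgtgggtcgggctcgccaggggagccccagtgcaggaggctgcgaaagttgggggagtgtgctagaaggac
Nr4a2: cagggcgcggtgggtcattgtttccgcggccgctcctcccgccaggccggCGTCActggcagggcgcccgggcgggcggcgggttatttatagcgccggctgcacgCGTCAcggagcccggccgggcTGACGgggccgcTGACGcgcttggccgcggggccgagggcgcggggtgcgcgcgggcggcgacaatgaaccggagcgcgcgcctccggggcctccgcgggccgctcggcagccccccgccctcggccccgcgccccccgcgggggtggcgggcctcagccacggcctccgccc
Nr4a3: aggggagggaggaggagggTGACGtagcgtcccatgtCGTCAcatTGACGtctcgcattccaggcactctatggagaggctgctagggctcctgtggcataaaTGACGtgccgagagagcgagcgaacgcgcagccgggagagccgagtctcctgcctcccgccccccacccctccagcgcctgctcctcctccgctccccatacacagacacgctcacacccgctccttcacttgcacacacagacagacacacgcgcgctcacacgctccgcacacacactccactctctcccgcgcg
Each window held 4 cores, all before the transcript start. Counted in bases from the start, they began at -233, -213, -69 and -40 in Nr4a1, at -200, -144, -123 and -111 in Nr4a2, and at -231, -213, -205 and -147 in Nr4a3. Of 32817 RefSeq promoter windows of the same length, 20.8% held at least 1 core and 0.232% held 4 or more. The core contains a CG pair and these windows are rich in G and C, at 72.3% for Nr4a1, 81.7% for Nr4a2 and 64.7% for Nr4a3 against a median of 52.7%. Among the 6213 windows with a G and C share at least that of Nr4a3, 0.563% held 4 or more. The full palindrome TGACGTCA, found in 1.79% of windows, the NBRE AAAGGTCA, found in 1.51%, and the CArG box of serum response factor, found in 1.63%, had no match in these 3 windows on either strand. The MEF2 site had 1 match in Nr4a2, and 3.19% of windows hold one. The NFAT core GGAAA had 1 match in Nr4a2 and none in Nr4a1 and Nr4a3, against 61.3% of windows with at least 1. A match describes the letters of this window only, and elements outside it were not searched.

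Neither targeted gene was called lower in the dKO-labelled libraries, so the counts do not check the deletion. The sources used here do not say which exons Cre removes, and a count per gene includes exons that a floxed allele may keep. Nr4a1 and Nr4a3 were not called in any comparison of the genotype labels, and Nr4a2 was called higher in the dKO-labelled libraries. Every direction between genotypes below refers to the label.

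Nr4a1 (chromosome 15: 101254269 to 101274795, GRCm38/mm10, plus strand), also known as Nur77 and used as a reporter of T cell receptor signal strength, had the most counts of the 3 in every library. Its level, in CPM scaled by TMM factors, was 635 and 669 in the dKO-labelled libraries at 48 h, against 881 and 779 in WT at 48 h. At 24 h it was 533 and 506 CPM in the dKO-labelled libraries, against 526 and 276 CPM in WT. Both WT libraries were above both labelled dKO at 48 h, as they were for 28.6% of all genes tested. In either direction the labels did not overlap at 48 h for 56.9% of genes. WT 24 h replicate 2 stood alone at the low end, and WT 24 h replicate 1 lay between the 2 dKO-labelled libraries at 24 h. In order of their means the groups were WT at 48 h (830.0 ± 72.2 CPM), labelled dKO at 48 h (652 ± 24.7 CPM), labelled dKO at 24 h (519.7 ± 18.9 CPM) and WT at 24 h (401 ± 177 CPM; SD, n = 2 each), and the last 2 overlapped.

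Between 24 and 48 h Nr4a1 rose in WT cells, with 881 and 779 CPM at 48 h against 526 and 276 CPM at 24 h, a log2 fold change of 1.05 (SE 0.267, 95% interval 0.45 to 1.65, adjusted p = 0.0321 in edgeR's quasi-likelihood test). In this comparison 2 of the 3 NR4A genes were called, against 11.4% of the 12742 genes tested. In the dKO-labelled cells the same difference was 0.33 (SE 0.265, interval -0.26 to 0.92, adjusted p = 0.477). Both 48 h libraries lay above both 24 h libraries, as they did for 32.8% of all genes tested. In either direction the 2 times did not overlap for 66.3% of genes. The difference between these 2 time courses was -0.72 (SE 0.374, interval -1.56 to 0.11, adjusted p = 0.444), in a comparison where 0 of the 12742 genes were called in edgeR and in DESeq2, with 1575 at p below 0.05 before adjustment. The size of the WT rise turned on WT at 24 h: it was 0.64 (adjusted p = 0.0791) without WT 24 h replicate 2 and 1.58 without WT 24 h replicate 1. The call was also lost without any 1 of the 4 dKO-labelled libraries, at adjusted p = 0.0771 to 0.0810.

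The genotype label made no called difference to Nr4a1. The log2 fold change was -0.35 at 48 h (SE 0.264, interval -0.94 to 0.24, adjusted p = 0.380 in edgeR) and 0.37 at 24 h (SE 0.265, interval -0.22 to 0.97, adjusted p = 0.880). Over both times it was 0.01 (SE 0.187, interval -0.40 to 0.43, adjusted p = 0.970). A loss of Nr4a1 counts by more than 0.94 on the log2 scale at 48 h, or by more than 0.22 at 24 h, lay outside these intervals of the fit over all 8 libraries. The 24 h limit depends on WT 24 h replicate 2, at 276 CPM against 526 CPM in replicate 1. Without WT 24 h replicate 2 the 24 h value was -0.03, and without WT 24 h replicate 1 it was 0.92.

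Nr4a2 (chromosome 2: 57106830 to 57124003, minus strand), also known as Nurr1 and best known as a factor that midbrain dopamine neurons require, was the member that separated the 4 groups. It stood at 75.5 and 77.3 CPM in the dKO-labelled libraries at 48 h, against 24.6 and 33.2 CPM in WT at 48 h. At 24 h it stood at 143 and 136 CPM in the dKO-labelled libraries, against 59.9 and 49.2 CPM in WT. No 2 groups overlapped, and the order of their means was labelled dKO at 24 h (139 ± 4.71 CPM), labelled dKO at 48 h (76.4 ± 1.29 CPM), WT at 24 h (54.5 ± 7.54 CPM) and WT at 48 h (28.9 ± 6.06 CPM; SD, n = 2 each). These levels rest on 144 to 1303 counts per library. The share of all genes whose 4 groups separate in this way was not counted. In the 4 comparisons of 2 groups, 44.9 to 66.3% of all genes tested did not overlap.

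The excess in the dKO-labelled libraries was close to 2.6-fold at both times. The fold was 2.61 at 48 h (log2 1.38, SE 0.176, interval 0.99 to 1.78, adjusted p = 0.00982 in edgeR) and 2.55 at 24 h (log2 1.35, SE 0.173, interval 0.97 to 1.74, adjusted p = 0.00836), and the difference between the 2 was 0.03 (SE 0.241, interval -0.51 to 0.57, adjusted p = 0.962). Nr4a2 was the 1 NR4A gene of 3 called in each comparison, against 11.2% of genes tested at 48 h and 0.432% at 24 h, where 0.361% were higher and 0.0706% lower. Groups that did not overlap were found for 56.9% of genes at 48 h (28.3% higher and 28.6% lower) and for 44.9% at 24 h (24.3% higher and 20.6% lower). By p it ranked 20 of 12742 at 48 h and 25 at 24 h. Over both times the log2 fold change was 1.37 (SE 0.123, adjusted p = 0.00045), where 7.8% of genes were called, and this call held without each library in turn (1.26 to 1.49, adjusted p at most 0.0110). The call at 48 h was lost without labelled dKO 48 h replicate 1 or 2 (adjusted p = 0.137 and 0.149). At 24 h it did not pass once a 24 h library or a dKO-labelled 48 h library was removed (adjusted p = 0.0510 to 0.185). With 1 library removed the log2 values stayed between 1.19 and 1.64 at 48 h and between 1.20 and 1.50 at 24 h. Xist and the Y-linked genes moved with the label as well, so genotype and sex cannot be told apart in this excess.

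Nr4a2 fell with time under both labels. At 48 h against 24 h it was 75.5 and 77.3 against 143 and 136 CPM in the dKO-labelled cells, a log2 fold change of -0.87 (SE 0.170, interval -1.25 to -0.49, adjusted p = 0.0261 in edgeR). In WT cells it was 24.6 and 33.2 against 59.9 and 49.2 CPM, a log2 fold change of -0.90 (SE 0.176, interval -1.29 to -0.51, adjusted p = 0.00889). In dKO-labelled cells it was the 1 NR4A gene of 3 called, against 3.63% of genes tested. That call was lost without any 1 of the 4 dKO-labelled libraries (adjusted p = 0.181 to 0.263), and the call in WT without WT 24 h replicate 1 (-0.76, adjusted p = 0.0866).

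**Figure D1:**
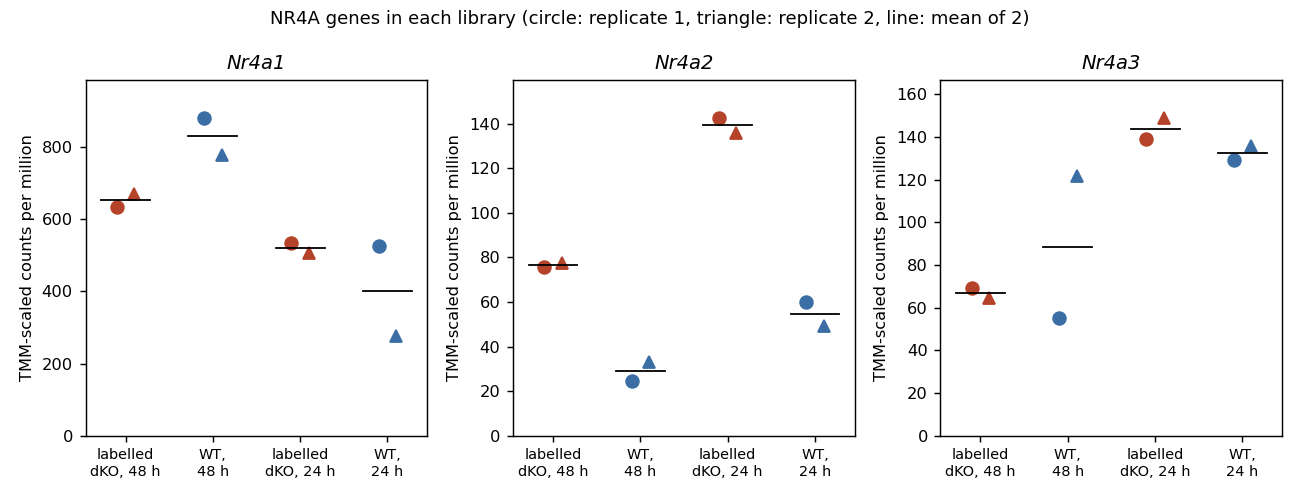
Level of each NR4A gene in the 8 libraries, as TMM-scaled CPM on a linear axis that starts at 0, with the replicates as circles and triangles and a line at the mean of 2, from labelled dKO at 48 h on the left to WT at 24 h on the right. Of these genes only Nr4a2 separates all 4 groups, from 24.6 to 143 CPM, while Nr4a1 and Nr4a3 each have 1 WT group with replicates far apart. The share of all genes that separate the groups was not counted.

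Nr4a3 (chromosome 4: 48045153 to 48086447, plus strand), also known as Nor1, was left intact by the design and its level did not differ by a called amount between the labels. It stood at 69.4 and 64.3 CPM in the dKO-labelled libraries at 48 h, against 55.4 and 122 CPM in WT at 48 h. At 24 h it stood at 139 and 149 CPM in the dKO-labelled libraries, against 129 and 136 CPM in WT. The WT libraries at 48 h lay on either side of those labelled dKO and differed 2.2-fold from each other, the widest gap between replicates of any NR4A gene here. The order of the means was labelled dKO at 24 h (144 ± 7.12 CPM), WT at 24 h (132 ± 4.75 CPM), WT at 48 h (88.5 ± 46.9 CPM) and labelled dKO at 48 h (66.8 ± 3.58 CPM; SD, n = 2 each), and the last 2 overlapped.

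The genotype differences of Nr4a3 were -0.42 at 48 h (SE 0.288, interval -1.07 to 0.22, adjusted p = 0.329 in edgeR) and 0.12 at 24 h (SE 0.285, interval -0.52 to 0.75, adjusted p = 0.959). The 48 h value was 0.28 without WT 48 h replicate 2 and -0.88 (adjusted p = 7.44e-05) without WT 48 h replicate 1. Over both times the difference was -0.15 (SE 0.202, adjusted p = 0.643), and the difference between the 2 times was -0.54 (SE 0.405, adjusted p = 0.561). No rise of Nr4a3 above 0.22 on the log2 scale at 48 h, or above 0.75 at 24 h, lay within the intervals of the fit over all 8 libraries. The 48 h limit depends on WT 48 h replicate 2, since the value of 0.28 without it lies beyond that limit. At 48 h against 24 h Nr4a3 was at 69.4 and 64.3 against 139 and 149 CPM in dKO-labelled cells, a log2 fold change of -1.11 (SE 0.291, interval -1.75 to -0.46) that did not pass at adjusted p = 0.0722 in edgeR and passed at 0.00889 in DESeq2. In WT cells it was at 55.4 and 122 against 129 and 136 CPM, a log2 fold change of -0.57 (SE 0.285, interval -1.20 to 0.07, adjusted p = 0.263), and -1.27 (adjusted p = 6.25e-05) without WT 48 h replicate 2. All 4 time comparisons of Nr4a2 and Nr4a3 thus had groups that did not overlap, with the 48 h level below, as did 33.5% of all genes tested in dKO-labelled cells and 24.4% in WT cells. In either direction the times did not overlap for 66.3% of genes in dKO-labelled cells and 47.1% in WT cells.

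**Figure D2:**
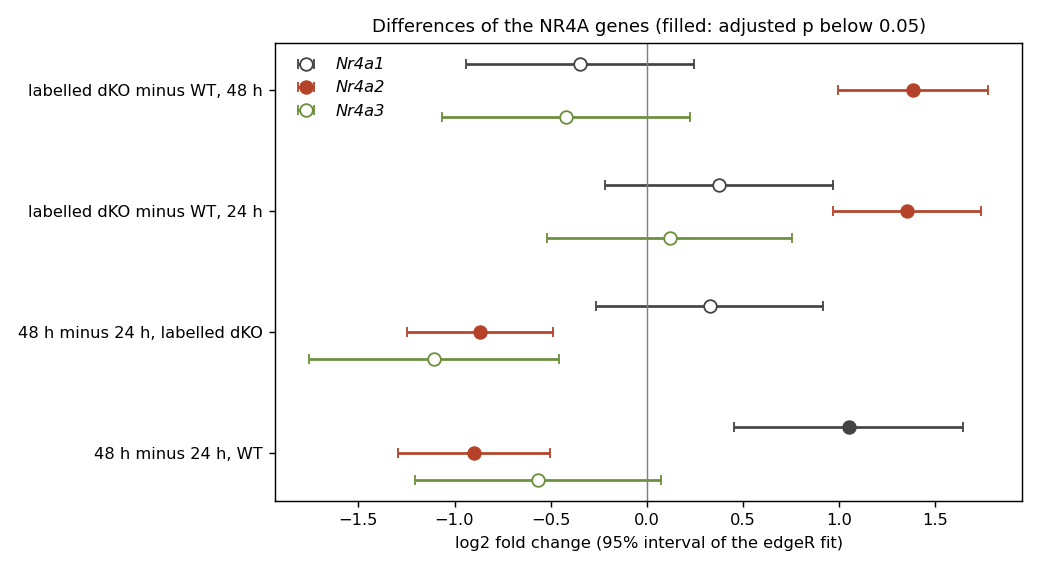
Differences of the 3 NR4A genes in the 4 comparisons of 2 groups, on the log2 scale with 95% intervals of the edgeR fit over all 8 libraries and filled points for an adjusted p below 0.05. Nr4a2 lies at 1.38 and 1.35 in the comparisons of labelled dKO with WT and at -0.87 and -0.90 in those of 48 h with 24 h, while Nr4a1 alone has positive values over time.

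Within a library the members can be compared without any scaling between libraries. Nr4a1 held 81.4% and 82.5% of the summed NR4A counts in the dKO-labelled libraries at 48 h, against 91.7% and 83.4% in WT at 48 h. Its 24 h shares were 65.5% and 64.0% under the dKO label, against 73.6% and 59.8% under the WT label. The share of Nr4a2 was 9.68% (95% Wilson interval 8.91 to 10.5%) and 9.53% (8.83 to 10.3%) in the dKO-labelled libraries at 48 h, against 2.56% (2.18 to 3.01%) and 3.55% (3.29 to 3.84%) in WT at 48 h. At 24 h it was 17.5% (16.7 to 18.4%) and 17.2% (16.1 to 18.3%) in the dKO-labelled libraries, against 8.37% (7.64 to 9.17%) and 10.7% (9.64 to 11.8%) in WT. At each time the share of Nr4a2 was therefore above both WT libraries in both dKO-labelled libraries. Nr4a3 held 8.90% and 7.93% in the dKO-labelled libraries at 48 h, against 5.76% and 13.0% in WT at 48 h. Its 24 h shares were 17.0% and 18.8% under the dKO label, against 18.1% and 29.5% under the WT label, and at 48 h the WT libraries lay on either side of the dKO-labelled ones.

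The balance of Nr4a3 to Nr4a2 set the labels apart at both times. There were 0.919 and 0.832 counts of Nr4a3 per count of Nr4a2 in the dKO-labelled libraries at 48 h, against 2.25 and 3.67 in WT at 48 h. At 24 h there were 0.974 and 1.10 in the dKO-labelled libraries, against 2.16 and 2.76 in WT. The 4 ratios of the dKO-labelled libraries thus lay below the 4 ratios of the WT libraries. Per kb of annotated exon (3.509 kb for Nr4a1, 4.059 kb for Nr4a2 and 5.987 kb for Nr4a3) the level of Nr4a2 was 18.8 ± 0.319 CPM per kb in the dKO-labelled libraries at 48 h, against 7.12 ± 1.49 in WT at 48 h, and 34.3 ± 1.16 in those labelled dKO at 24 h, against 13.4 ± 1.86 in WT at 24 h (SD, n = 2 each). Nr4a3 was at 11.2 ± 0.598 CPM per kb in the dKO-labelled libraries at 48 h, against 14.8 ± 7.84 in WT at 48 h, and at 24.0 ± 1.19 in those labelled dKO at 24 h, against 22.1 ± 0.793 in WT at 24 h. Per length Nr4a2 was above Nr4a3 in the 4 dKO-labelled libraries and below it in the 4 WT libraries, and Nr4a1 was above both everywhere, at a mean of 114 to 237 CPM per kb by group. Whether reads cover whole transcripts or only their 5′ ends is not stated in the sources used, and in the second case a level per length does not apply.

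**Figure D3:**
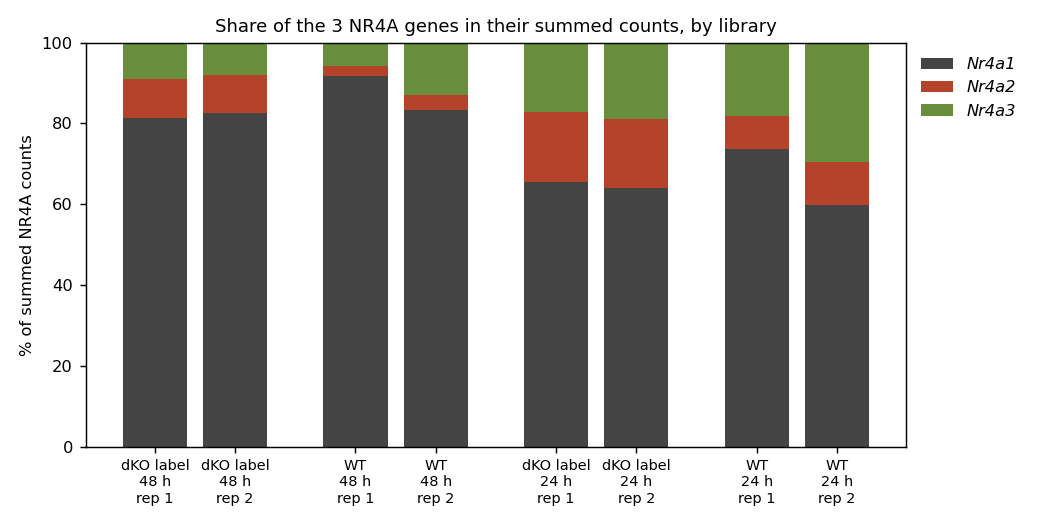
Share of Nr4a1, Nr4a2 and Nr4a3 in their summed counts, as stacked bars from 0 to 100% for each of the 8 libraries, with dKO-labelled libraries left of WT at each time. Nr4a2 holds 9.53 to 9.68% in the dKO-labelled libraries at 48 h against 2.56 to 3.55% in WT, and 17.2 to 17.5% against 8.37 to 10.7% at 24 h.

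The summed NR4A level was 779 and 811 CPM in the dKO-labelled libraries at 48 h, against 961 and 934 CPM in WT at 48 h. At 24 h the sum was 814 and 791 CPM in the dKO-labelled libraries, against 715 and 461 CPM in WT at 24 h. In the dKO-labelled cells the 2 times overlapped, and in WT cells both 48 h libraries were above both 24 h libraries. The sum, like Nr4a1, was lowest in WT 24 h replicate 2.

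Among nuclear receptors the NR4A genes stood near the top of the levels measured. Of 46 other mouse nuclear receptor genes looked for, 41 are in the table, 38 had a count and 23 were tested. Per kb of exon, as the mean over the 4 groups, Nr4a1 came first of 26 at 171 CPM per kb. Rorb, known from retina and brain, was at 87.1 CPM per kb, Nr4a2 at 18.4, Nr4a3 at 18.0, Nr1h2, the LXR-beta gene, at 6.45 and Esrra, the estrogen-related receptor alpha gene, at 4.70. Without division by length the mean levels were 964 CPM for Rorb, 601 CPM for Nr4a1, 108 CPM for Nr4a3 and 74.8 CPM for Nr4a2. On that scale Nr2c2, which encodes the orphan receptor TR4, had 38.4 CPM and the glucocorticoid receptor gene Nr3c1 29.5 CPM. Among the 23 others edgeR called 1 lower in the dKO-labelled libraries at 48 h, Nr6a1, the germ cell nuclear factor gene (-1.52, SE 0.404, adjusted p = 0.0420), against 8.04% of all genes. That call was lost without any 1 library except the WT 48 h ones, in DESeq2 (adjusted p = 0.0914) and with only the 48 h libraries in the fit (0.134). At 24 h 0 were called, against 0.432% of all genes, where 2 were higher at p below 0.05 before adjustment and DESeq2 also called 0. With no filter 2 other nuclear receptors were called higher at 24 h. The median of the 23 was -0.29 at 48 h and -0.07 at 24 h, against -0.03 and 0.01 over all genes.

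Rxra, which encodes the retinoid X receptor that NR4A1 and NR4A2 can bind as dimers, was at 5.94 ± 0.607 CPM in the dKO-labelled libraries at 48 h, against 3.98 ± 0.554 CPM in WT, and at 6.79 ± 0.922 CPM in those labelled dKO at 24 h, against 2.80 ± 0.189 CPM in WT (SD, n = 2 each). Over both times it was higher by 0.92 (SE 0.181, adjusted p = 0.0237 in edgeR) on the log2 scale. Rxra was not called at either time alone (0.54 with adjusted p = 0.151 at 48 h and 1.29 with 0.0992 at 24 h), and the call over both times was lost without WT 24 h replicate 1 or any dKO-labelled library, at 0.84 to 1.01. Its partner gene Rxrb was at 0.28 over both times (adjusted p = 0.217). Over time 1 of the 23 other nuclear receptors was called higher and 0 lower in WT cells, against 7.87% and 3.5% of all genes. In dKO-labelled cells 0 were called higher and 3 lower at 48 h than at 24 h, against 1.76% and 1.88%. Among the lower ones were Nr1h2 (-0.76, adjusted p = 0.0437) and the retinoic acid receptor gene Rara (-0.99, adjusted p = 0.0482). Both of those calls were lost without any 1 library other than WT 48 h replicates 1 and 2, with the replicate block (adjusted p = 0.0610 for Nr1h2 and 0.0528 for Rara) and in DESeq2 (0.0755 and 0.0663). In WT cells Esrrg was higher at 48 h (1.75, adjusted p = 0.0383), at 1.13 to 2.83 with 1 library left out, and its call was lost without WT 24 h replicate 2 or any dKO-labelled library, in DESeq2 (adjusted p = 0.0525) and with only the WT libraries in the fit (0.106).

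**Figure D4:**
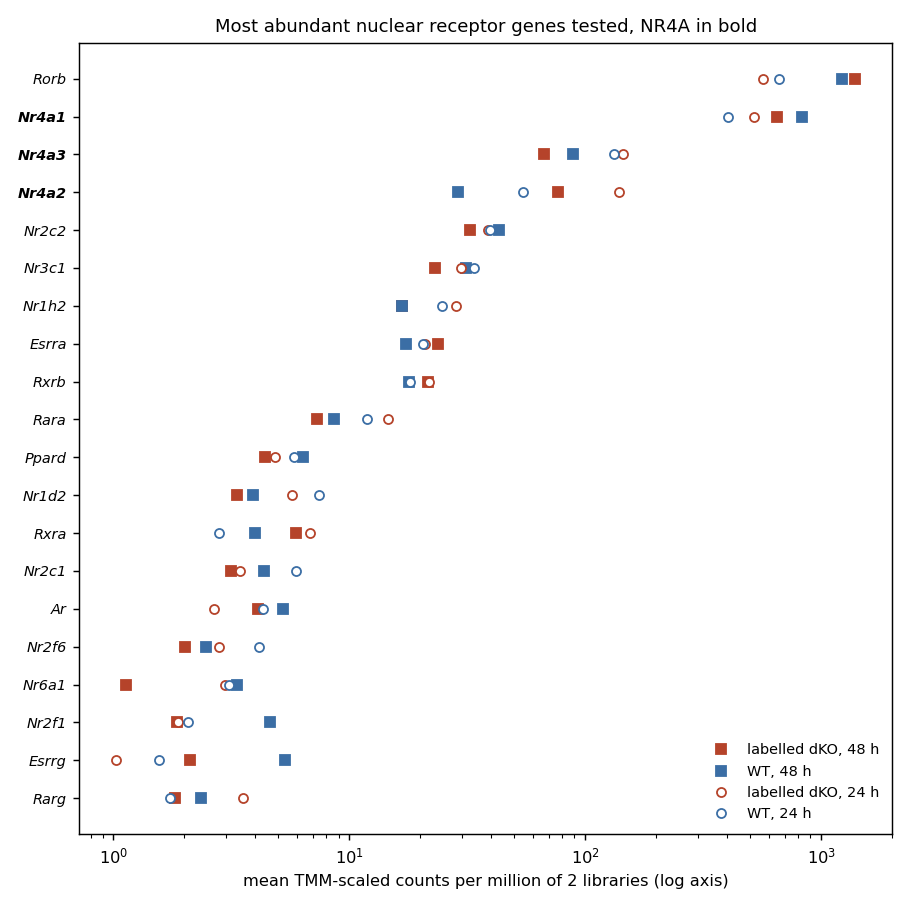
Mean level of the 20 nuclear receptor genes with the most CPM among the 26 tested, as TMM-scaled CPM on a log axis, for the 4 groups of 2 libraries (red: labelled dKO, blue: WT, filled squares: 48 h, open circles: 24 h). Genes run down by mean CPM, which is not divided by length, and Nr4a1, Nr4a3 and Nr4a2 follow Rorb at 601, 108 and 74.8 CPM.

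Genes of the signalling that induces NR4A transcription were followed next. Among 8 calcineurin and NFAT genes, 7 MEF2 and class II histone deacetylase genes, 8 CREB factors and coactivators and 10 kinases of the PKC and ERK branch, edgeR called 2 of 33 at 48 h, both lower in the dKO-labelled libraries, against 8.04% of all genes lower and 3.19% higher. These were Hdac7, which encodes a deacetylase that holds MEF2 targets such as Nr4a1 silent in thymocytes (39.0 ± 5.31 CPM in dKO-labelled libraries against 58.8 ± 6.04 CPM in WT, log2 -0.60, SE 0.159, adjusted p = 0.0415), and the coactivator gene Ep300 (11.1 ± 0.480 CPM under the dKO label against 25.5 ± 14.0 CPM in WT, log2 -1.24, SE 0.319, adjusted p = 0.0376; SD, n = 2 each). Both calls were lost without any 1 library other than WT 48 h replicate 1, and Ep300 was at -0.48 without WT 48 h replicate 2. Hdac7 was also not called with the replicate block (adjusted p = 0.0565), in DESeq2 (0.0621), with library size alone (0.136) or with only the 48 h libraries in the fit (0.173), and Ep300 not in the last of these (0.174). At 24 h 0 of the 33 were called in edgeR, against 0.432% of all genes, and 0 in DESeq2. Nfatc1, the inducible NFAT gene, was at -0.74 at 48 h (adjusted p = 0.061 in edgeR) and did not pass. It stood at 47.5 and 52.5 CPM in the dKO-labelled libraries at 48 h, against 60.8 and 104 CPM in WT replicates 1 and 2. Of the 8 calcineurin and NFAT genes, 1 was called lower at 48 h in DESeq2 and 1 with no filter. With only the 48 h libraries in the fit 0 were.

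Among 14 tested genes for partners of NR4A proteins, 2 were called higher and 2 lower in the dKO-labelled libraries at 48 h, against 3.19% and 8.04% of all genes. The kinase gene Stk11, which encodes LKB1, was among the higher ones, at 71.5 ± 1.56 CPM under the dKO label against 50.7 ± 1.06 CPM in WT (log2 0.50, SE 0.128, adjusted p = 0.0368). Its call was lost without any 1 library except the WT 48 h ones, with the replicate block (adjusted p = 0.0559), with no filter (0.0601) and in DESeq2 (0.0972). The coactivator genes Ncoa3 (-1.01, SE 0.201, adjusted p = 0.0162) and Ncoa2 (-0.89, SE 0.226, adjusted p = 0.0349) were the lower ones under the dKO label. Without WT 48 h replicate 2 they were at -0.65 and -0.47. The call of Ncoa2 was lost without any 1 library except WT 48 h replicate 1 and with library size alone (adjusted p = 0.0538), and that of Ncoa3 without dKO-labelled 48 h replicate 1 or 2. Higher and lower calls numbered 0 and 0 once dKO-labelled 48 h replicate 1 or 2 was removed, 1 and 1 once any single 24 h library was, 2 and 1 with WT 48 h replicate 2 removed, and 4 and 8 with WT 48 h replicate 1 removed. With only the 48 h libraries in the fit they were 0 and 0. Bcl2, whose protein NR4A1 can bind at mitochondria, was lower in the dKO-labelled libraries than in WT over both times. The difference was -0.53 on the log2 scale (SE 0.116, adjusted p = 0.0276). Its call was lost without WT 24 h replicate 1 or any dKO-labelled library, at -0.61 to -0.46 with 1 library left out. At 24 h 0 of the 14 were called in edgeR or in DESeq2, with 1 higher and 1 lower at p below 0.05 before adjustment. With no filter 1 partner gene was called higher at 24 h.

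Of 26 other immediate-early genes tested, the class to which the NR4A genes belong, 4 fell and 0 rose at 48 h against 24 h in dKO-labelled cells, and 7 fell and 0 rose in WT cells. Of all genes, 1.88% fell and 1.76% rose in dKO-labelled cells, and 3.5% fell and 7.87% rose in WT cells. The median log2 difference of the 26 was -0.50 in dKO-labelled cells and -0.40 in WT cells, against -0.01 and 0.00 over all genes. Egr2, a zinc finger factor induced through NFAT, was at 24.0 ± 0.937 CPM at 48 h against 50.8 ± 2.26 CPM at 24 h in dKO-labelled cells (log2 -1.08, SE 0.172, adjusted p = 0.0101 in edgeR) and at 26.4 ± 4.64 CPM at 48 h against 55.6 ± 7.0 CPM at 24 h in WT cells (log2 -1.09, SE 0.170, adjusted p = 0.00275; SD, n = 2 each). The AP-1 gene Fosl1 was at -1.62 (SE 0.199, adjusted p = 0.00316) in dKO-labelled cells and at -1.20 (SE 0.191, adjusted p = 0.00296) in WT cells. In WT cells the count of falls was 2 without WT 24 h replicate 1 or 2, 11 without WT 48 h replicate 1, 9 (with 2 rises) without WT 48 h replicate 2 and 3 without any 1 dKO-labelled library. In dKO-labelled cells it was 0 or 1 without any 1 of their own libraries, and 14 (with 3 rises) without either WT 48 h replicate. With library size alone the falls were 10 in dKO-labelled cells and 16 in WT cells, and with only the groups compared 17 (with 3 rises) in dKO-labelled cells and 0 in WT cells, where Egr2 (adjusted p = 0.0661) and Fosl1 (0.0657) did not pass. With no filter 9 fell in dKO-labelled cells and 8 in WT cells, and in DESeq2 5 and 4.

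Between the labels, 6 of the 26 immediate-early genes were called higher and 0 lower in the dKO-labelled libraries at 48 h, against 3.19% and 8.04% of all genes. Nfkbia, which encodes the inhibitor of NF-kB, was at 82.9 ± 2.33 CPM in dKO-labelled libraries against 44.1 ± 13.5 CPM in WT (log2 0.93, SE 0.194, adjusted p = 0.0175), Ier2 at 71.8 ± 0.855 CPM under the dKO label against 47.4 ± 6.95 CPM in WT (0.61, SE 0.146, adjusted p = 0.0293) and the AP-1 gene Jund at 359 ± 17.6 CPM under the dKO label against 239 ± 6.52 CPM in WT (0.59, SE 0.146, adjusted p = 0.0328; SD, n = 2 each). The count was 0 without any 1 dKO-labelled library, 3 without either WT 24 h replicate, 4 without WT 48 h replicate 2, and 9 with 3 falls without WT 48 h replicate 1. It was 4 in DESeq2, with the replicate block and with a mean of at least 50 counts, and 0 with only the 48 h libraries in the fit. At 24 h 0 were called in edgeR or in DESeq2, with 5 higher and 0 lower at p below 0.05 before adjustment. With no filter 1 was called higher at 24 h, with only the 24 h libraries in the fit 2, and without either WT 48 h replicate 3. Over both times 5 were called higher and 0 lower, against 2.28% and 5.52% of all genes, among them Dusp2, a phosphatase that acts on ERK (0.49, SE 0.105, adjusted p = 0.0267), and Atf3 (0.67, SE 0.153, adjusted p = 0.0297). The calls of these 2 genes were lost without any 1 library other than the WT 48 h ones, and that of Atf3 in DESeq2 (adjusted p = 0.0902).

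Of 10 tested genes tied to NR4A activity in exhausted cells, 4 were called lower and 0 higher in the dKO-labelled libraries at 48 h, against 8.04% and 3.19% of all genes. Ikzf2, which encodes Helios, was at 20.3 ± 1.56 CPM in dKO-labelled libraries against 36.2 ± 4.27 CPM in WT (SD, n = 2 each; log2 -0.84, SE 0.187, adjusted p = 0.0222 in edgeR). The others were Tox at -0.86, the PD-1 gene Pdcd1 at -0.64 and Tigit at -0.73. At 24 h 0 were called in edgeR or in DESeq2, with 3 higher and 1 lower at p below 0.05 before adjustment. With no filter 1 was called higher and 1 lower at 24 h, and likewise with only the 24 h libraries in the fit. The 48 h count was 0 without labelled dKO 48 h replicate 1 or 2, 1 without either labelled dKO 24 h replicate, 3 without either WT 24 h replicate, and 5 with 1 rise without WT 48 h replicate 1. It was 2 with library size alone, where Pdcd1 and Tigit did not pass, and 0 with only the 48 h libraries in the fit. Over both times 2 were lower and 1 higher, the last being Nrp1 (0.75, SE 0.166, adjusted p = 0.0280), which encodes neuropilin-1, and its call was lost without any 1 library other than the WT 48 h ones. With time 1 of the 10 was called higher and 3 lower in dKO-labelled cells, against 1.76% and 1.88% of all genes. In WT cells 3 were called higher and 1 lower, against 7.87% and 3.5%. Lag3 was called lower in dKO-labelled cells (-0.74) and in WT cells (-0.65), and Tox (-0.80) and Pdcd1 (-0.63) in dKO-labelled cells only. The lower calls in dKO-labelled cells were lost without any 1 dKO-labelled library. Ctla4, an inhibitory receptor gene, rose with time in dKO-labelled cells (2.48, SE 0.226, adjusted p = 0.00106) and in WT cells (1.92, SE 0.220, adjusted p = 0.00221), and both calls held without each library in turn, while that in WT cells was lost with only the WT libraries in the fit (adjusted p = 0.0632).

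Likeness was measured as the root mean square difference of log2 CPM, each gene centred on its own mean over the 8 libraries, among 10029 genes with a mean of at least 20 counts. It was 1.09 between Nr4a1 and Nr4a2, 0.92 between Nr4a1 and Nr4a3 and 0.77 between Nr4a2 and Nr4a3, against medians of 0.55, 0.86 and 0.59 between all genes and Nr4a1, Nr4a2 and Nr4a3 in turn. The genes most like Nr4a2 were Nthl1, a DNA repair gene (0.24), Lilrb4a, an inhibitory receptor gene (0.27), the granzyme inhibitor gene Serpinb9 (0.29), the neuropeptide gene Npw (0.30) and Chst11, a chondroitin sulfotransferase gene (0.33). With 1 library left out, 3 to 5 of these remained among the 5 closest. The genes most like Nr4a1 were the splicing gene Snrpf (0.18), the spindle gene Ckap2l (0.18), Arhgap18 (0.21), Ckap2 (0.21) and the vesicle transport gene Tmed2 (0.22), and 0 of these remained without WT 48 h replicate 2 or WT 24 h replicate 2. The genes most like Nr4a3 were Atf7 (0.10), the kinase gene Ptk2b (0.10), BC052040 (0.11), Myo10 (0.11) and Uprt (0.12), of which 2 to 5 remained. Like Nr4a3, Ptk2b was far higher in WT 48 h replicate 2, at 57.0 CPM, than in replicate 1, at 25.6 CPM.

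No nearest tested neighbour of a member was called between the labels. Those of Nr4a2, Gpd2 at 114 kb and Kcnj3 at 1509 kb, were at -0.48 (adjusted p = 0.0761) and -0.90 (0.0888) between the labels at 48 h and at 0.09 (0.938) and -0.33 (0.900) at 24 h in edgeR. Next to Nr4a1, Atg101 at 9.48 kb was at 0.51 (0.150) at 48 h and 0.18 (0.929) at 24 h, and Grasp at 21.5 kb at 0.63 (0.0588) and 0.29 (0.871). Next to Nr4a3, Stx17 at 38.5 kb was at -0.00032 at 48 h and 0.02 at 24 h, and Sec61b at 562 kb at 0.27 and 0.16, with adjusted p of at least 0.460. No gene of the table that carries a position overlaps any of the 3.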

How the data were processed

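For each of 8 RNA libraries the authors deposited raw counts, whole numbers listed by gene symbol. The submitters' processing notes name cutadapt 1.18, Bowtie2 2.2.5 and the build mm10. How reads were counted, with which annotation and strand rule, is not given in the sources used here. A last entry with no name, equal to the column total (50% of each column sum), was left out. Gene positions and exon lengths came from GENCODE M21 (19903 symbols matched), promoters from RefSeq, both on GRCm38.

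All 8 libraries entered 1 fit in edgeR 4.0.16 (R 4.3.3, limma 3.58.1): glmQLFit and glmQLFTest, a mean per group, TMM scaling and filterByExpr with a minimum count of 10, which kept 12742 genes and all 3 members. Genes were called at a Benjamini-Hochberg adjusted p below 0.05 over all genes tested, two-sided. Standard errors were taken from the F statistic and the log2 fold change, and 95% intervals used the residual and prior degrees of freedom. The script was tested on simulated data. DESeq2 1.42.0, other scalings, filters, group subsets, a replicate block and each library left out were alternatives; leaving out libraries in the likeness ranking was chosen after seeing the data.

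The members and gene lists were chosen with earlier results of these data known. The named genes were the members, up to 4 called genes per list and comparison with the smallest p (with none called, the smallest p), the most abundant nuclear receptors, the 5 genes most like each member and the nearest tested neighbours; some called genes of the lists are counted only. The lists hold genes known from textbooks as inducers, partners, co-induced or linked genes. Some genes of the lists are not reported here.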

Additional observations from a re-analysis of the deposited data

How the results depend on the processing

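Nr4a2 was higher in the dKO-labelled libraries at both times under each alternative run, and lost its call only with some left-out libraries, named above. With 1 library left out, Nr4a2 ran from 1.19 to 1.64 at 48 h, from 1.20 to 1.50 at 24 h, from -0.15 to 0.31 in the difference between the 2 times, from -0.90 to -0.82 over time in dKO-labelled cells and from -1.16 to -0.70 in WT cells. Nr4a1 ran from -0.033 (without WT 24 h replicate 2) to 0.92 at 24 h, from -0.19 to 0.29 over both times, from -1.26 to -0.31 in the difference between times and from 0.64 to 1.58 over time in WT cells. Nr4a3 ran from -0.88 to 0.28 at 48 h, from -0.39 to 0.19 over both times, from -0.98 to 0.18 in the difference between times, from -1.15 to -1.04 over time in dKO-labelled cells and from -1.27 to -0.11 in WT cells. The difference between times was called for Nr4a1 without WT 24 h replicate 1 (-1.26, adjusted p = 0.0465) and for Nr4a3 without WT 48 h replicate 1 (-0.98, adjusted p = 0.00112). The cause was not tested.

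With a mean of at least 50 counts, Nr4a1 over both times was -0.027 and Nr4a2 in the difference between times -0.0033. With only the groups compared, the time differences in WT lost their call for Nr4a1 (1.05, adjusted p = 0.190) and Nr4a2 (-0.90, adjusted p = 0.100), and those in dKO-labelled cells gained one for Nr4a1 (0.32) and Nr4a3 (-1.11). The fall of Nr4a3 over time was also called in dKO-labelled cells with library size alone (-1.28), with no filter (-1.07) and in DESeq2 (-1.08), and in WT cells with library size alone (-0.92) and no filter (-0.55). Library size alone moved the median of all genes to 0.15 at 48 h, 0.15 in the difference between times, -0.36 over time in WT cells and -0.18 in dKO-labelled cells.

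The edgeR counts of calls were 1430 at 48 h (406 higher and 1024 lower), 55 at 24 h, 994 over both times, 463 over time in dKO-labelled cells (224 higher and 239 lower) and 1449 in WT cells (1003 higher and 446 lower). In the difference between times 0 were called, with 1575 at an unadjusted p under 0.05 and 0 in DESeq2. Library size alone gave 2531 (1615 higher and 916 lower), 739 (143 and 596) and 3366 (725 and 2641) at 48 h and over time in dKO-labelled cells and in WT cells. No filter gave 2962 at 48 h, 206 at 24 h, 2264 over both times, 170 in the difference between times and 1649 over time in dKO-labelled cells. Only the groups compared gave 444 at 48 h, 181 at 24 h, 4546 over time in dKO-labelled cells and 31 in WT cells. With 1 library left out the counts ran from 15 to 6521 at 48 h, 13 to 371 at 24 h, 56 to 5606 over both times, 0 to 3459 in the difference between times, 32 to 3303 over time in dKO-labelled cells and 595 to 4212 in WT cells.

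The replicate numbers pair nothing that the labels name, and replicate differences of 2 groups correlated across genes at -0.076 to 0.17. With the replicate block, Nr4a2 was at 1.39 at 48 h (adjusted p = 0.0149) and 1.35 at 24 h (adjusted p = 0.0137). At these times 1285 and 56 genes were called, and no call of an NR4A gene changed. Calls lost among the listed genes included Hdac7 and Stk11 at 48 h, and Hdac7 and Ncoa3 over both times. Over time they included Nr1h2, Rara, Tox and Pdcd1 in dKO-labelled cells and Entpd1 in WT cells. Of the 26 immediate-early genes, 4 instead of 6 were called higher at 48 h, and 4 instead of 5 over both times. In WT cells 5 of them instead of 7 fell with time. Counts of list members moved with most left-out libraries, as given beside the partner, immediate-early and exhaustion-linked genes. For the other nuclear receptors and the genes of the inducing signals only the lost calls of named genes are given. The depth of 5000952 to 21686236 counts limits genes with few counts, and the NR4A genes had at least 144 counts in each library. The deepest library was WT 48 h replicate 2. Nr4a3 stood at 122 CPM there, against 55.4 CPM in WT 48 h replicate 1. Whether depth bears on the NR4A levels was not tested.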

Other observations

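Transcripts that are not typical of T cells were counted at high levels in these libraries. Rorb, the nuclear receptor gene above Nr4a1, was at 1398 ± 50.7 CPM in the dKO-labelled libraries at 48 h, against 1227 ± 994 CPM in WT at 48 h, and at 568 ± 113 CPM in dKO-labelled libraries at 24 h, against 664 ± 237 CPM in WT at 24 h (SD, n = 2 each). It was 1930 CPM in WT 48 h replicate 1 and 524 CPM in replicate 2, the reverse of the order of Nr4a3 in those libraries. Kcnj3, the potassium channel gene that is the lower neighbour of Nr4a2, was at 105 and 111 CPM in the dKO-labelled libraries at 48 h, against 222 and 181 CPM in WT at 48 h. Whether these counts come from transcripts of the named genes was not tested.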
